A study of Mus musculus with 32 samples.

Results

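The data cover 8 genes of the MHC class II antigen presentation pathway in bone marrow-derived macrophages (BMDMs) in which Trex1, the gene of a DNA exonuclease, was deleted in culture. The genes were picked by name and not by their values. They are the rows of the gene count table whose Ensembl identifier, read without its version, belongs to H2-Aa, H2-Ab1, H2-Eb1, Cd74, Ciita, H2-DMa, H2-DMb1 or H2-DMb2. These are 8 of 54281 genes in the table, and all 8 were among the 15257 genes that passed the filter on low counts. BMDMs carried the loxP-flanked Trex1 allele on both chromosomes (Trex1 FL/FL) or beside a wild-type allele (Trex1 WT/FL). Per the study's methods, all of them also carried the CreERT2 recombinase at the R26 locus, which is not restricted to a cell type and is activated by 4-hydroxytamoxifen (4-OHT). Cells of each genotype were left untreated or received 4-OHT at 2 µg/ml over 22 h, and RNA was sequenced 1, 2, 3 and 4 days after it was withdrawn. This gave 16 groups with 2 libraries each. The 4-OHT-treated WT/FL cells keep a wild-type Trex1 allele but share the active recombinase, so they are a control with less Trex1 and not with an intact locus. The labels give no animal, culture or replicate number, so p-values measure only the spread between these libraries, which may be technical.

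MHC class II molecules are pairs of an alpha and a beta chain that display peptides from endosomes to CD4+ T cells. The chains assemble on the invariant chain, encoded by Cd74, and the peptide-exchange factor H2-DM replaces the invariant chain remnant in the groove with antigen peptides. Transcription of these genes depends on the coactivator CIITA, which has no DNA-binding domain of its own and is recruited by factors bound to the X and Y boxes of class II promoters. In macrophages, Ciita is classically induced by IFN-gamma through IRF1, whereas CIITA-dependent class II expression is known to differ widely between macrophage populations.

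In the GENCODE annotation of GRCm39, 6 of the genes lie close together on chromosome 17. The alpha chain gene H2-Aa is at chr17:34493404-34506798 on the minus strand, and the beta chain genes H2-Ab1 and H2-Eb1 are at chr17:34476663-34488393 and chr17:34504236-34535648 on the plus strand. H2-DMa, the alpha chain gene of H2-DM, is at chr17:34338515-34358958, and its beta chain genes H2-DMb2 and H2-DMb1 follow at chr17:34362197-34370529 and chr17:34372046-34379204, all on the plus strand. Ciita is at chr16:10297923-10347694 on the plus strand, and Cd74 lies on another chromosome than these. The annotated spans of H2-Aa and H2-Eb1 overlap by 2563 bases on opposite strands, that of H2-DMa overlaps Brd2 by 3231 bases and that of Ciita overlaps Dexi by 29935 bases, both also on opposite strands. Whether counting used the strand is not stated, and reads from such overlaps could then not be told apart. H2-DMb1 and H2-DMb2 are near copies. Of the 31-base words of their annotated transcripts, 31.4% of those of H2-DMb1 also occur in H2-DMb2 and 27% of those of H2-DMb2 in H2-DMb1, so the division of reads between them is uncertain. The share of words found in any other gene was 10.4% for H2-DMa, 8.46% for H2-Eb1, and 0.236% to 4.46% for H2-Aa, H2-Ab1, Cd74 and Ciita.

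Promoter sequence was available for 5 of the 8 genes, H2-Aa, H2-Eb1, H2-DMa, H2-DMb1 and H2-DMb2, in 6 start windows of the RefSeq table for GRCm38.p6, each of which matched GRCm39 once. The stretches below hold the X and Y box region, through which CIITA acts. H2-Eb1 and H2-Aa are a beta and an alpha chain gene whose levels ran together in these libraries. H2-DMb2 is a DM gene whose levels correlated less with the mean of H2-Aa, H2-Ab1 and H2-Eb1 (Pearson's r of 0.294). It had few counts (16 to 107 per library), and the division of reads between it and H2-DMb1 is uncertain. Capitals mark the X box stretch AACNGATG, or GCAAC in H2-Aa, and the Y box ATTGG. Coordinates are in GRCm39, the H2-Aa stretch is read on the minus strand and the others on the plus strand.
H2-Eb1, chr17:34524737-34524791: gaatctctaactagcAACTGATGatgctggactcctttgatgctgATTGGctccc
H2-DMb2, chr17:34364088-34364142: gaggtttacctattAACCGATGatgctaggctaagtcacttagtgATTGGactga
H2-Aa, chr17:34506836-34506890: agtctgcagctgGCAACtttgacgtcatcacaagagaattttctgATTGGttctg
They run from position -104 to -50 of the annotated start in H2-Eb1, from -135 to -81 in H2-DMb2 and from -93 to -39 in H2-Aa, with 22, 23 and 28 bases between the capital stretches. H2-DMb1 also held AACTGATG at -92 and ATTGG at -61, whereas H2-DMa held ATTGG at -198 in 1 of its 2 windows and no AACNGATG. On either strand, AACNGATG occurred in 2.32% and ATTGG in 37.4% of the 32851 promoter windows of the table, and AACNGATG followed by ATTGG 12 to 32 bases on in 0.0213% (7 windows). The stretch AACNGATG and its pairing with ATTGG at this spacing were chosen after these promoters had been read. The 7 windows include those of H2-Eb1, H2-DMb1 and H2-DMb2, so their low share is no independent measure of rarity. GCAAC, marked in H2-Aa, was not among the motifs searched for from the start either, and its share of all windows was not counted. Of the motifs searched for from the start, the X box core AGCAAC (14.8% of all windows) was found only in H2-Eb1, and its looser form AGNNACNG (50.9%), which overlaps it, in H2-Eb1, H2-DMa and H2-DMb1. The GAS element TTCNNNGAA (8.3%), a motif of IFN-gamma-responsive promoters, was found only in H2-DMb2, at -218, and the interferon-stimulated response element (3.44%) in none. These are matches of letters and no evidence of binding.

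Libraries held 35120505 to 63760884 estimated counts, with a median of 44841991. Trex1 had 0 counts in the 4-OHT-treated FL/FL libraries of days 1, 3 and 4 and 14 and 9 counts in those of day 2, which matches their labels. Trex1 in 4-OHT-treated WT/FL cells was lower than in untreated WT/FL cells on each day (log2 fold change -1.16, -1.06, -0.86 and -0.80 on days 1 to 4). All 8 macrophage markers were detected in every library, with a summed level of 15284 to 48655 CPM (counts scaled to the same total in every library, after TMM adjustment of library sizes). Of 7 B cell markers, Cd79a, Pax5 and Ebf1 had 0 counts in 22 to 31 of the 32 libraries, whereas Cd79b (1.23 to 6.56 CPM) and Cd22 (0.116 to 10.6 CPM) were detected in all. The summed level of that list was 2.04 to 15.1 CPM, and the summed level of 5 T and NK cell markers did not exceed 0.212 CPM.

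Class II transcripts were a small part of the BMDM transcriptome, and their levels spanned a wide range. To compare genes, CPM was divided by the length of the canonical transcript in kilobases. By this measure Cd74 was the most abundant of the 8 in all 16 groups, from 34.7 CPM per kb in untreated FL/FL cells on day 1 to 253 in 4-OHT-treated WT/FL cells on day 3. On days 1 and 2, H2-DMb1 came next in all groups, with 13.9 to 19.6 CPM per kb, although its 2 libraries overlapped with those of H2-Ab1 on day 1 in both WT/FL groups and with those of H2-DMa on day 2 in untreated WT/FL cells. From day 3 on, H2-Ab1 and H2-Aa took the places below Cd74 in every group except 4-OHT-treated FL/FL cells on day 3. Ciita and H2-DMb2 were the lowest throughout, at most at 1.24 and 1.18 CPM per kb. In counts, Ciita ranged from 51 to 479 per library and H2-DMb2 from 16 to 107, so that counting error is largest for these 2. H2-DMb2 took 1.36% to 8.08% of the counts of the H2-DMb pair, with a median of 3.57%.

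**Figure D1:**
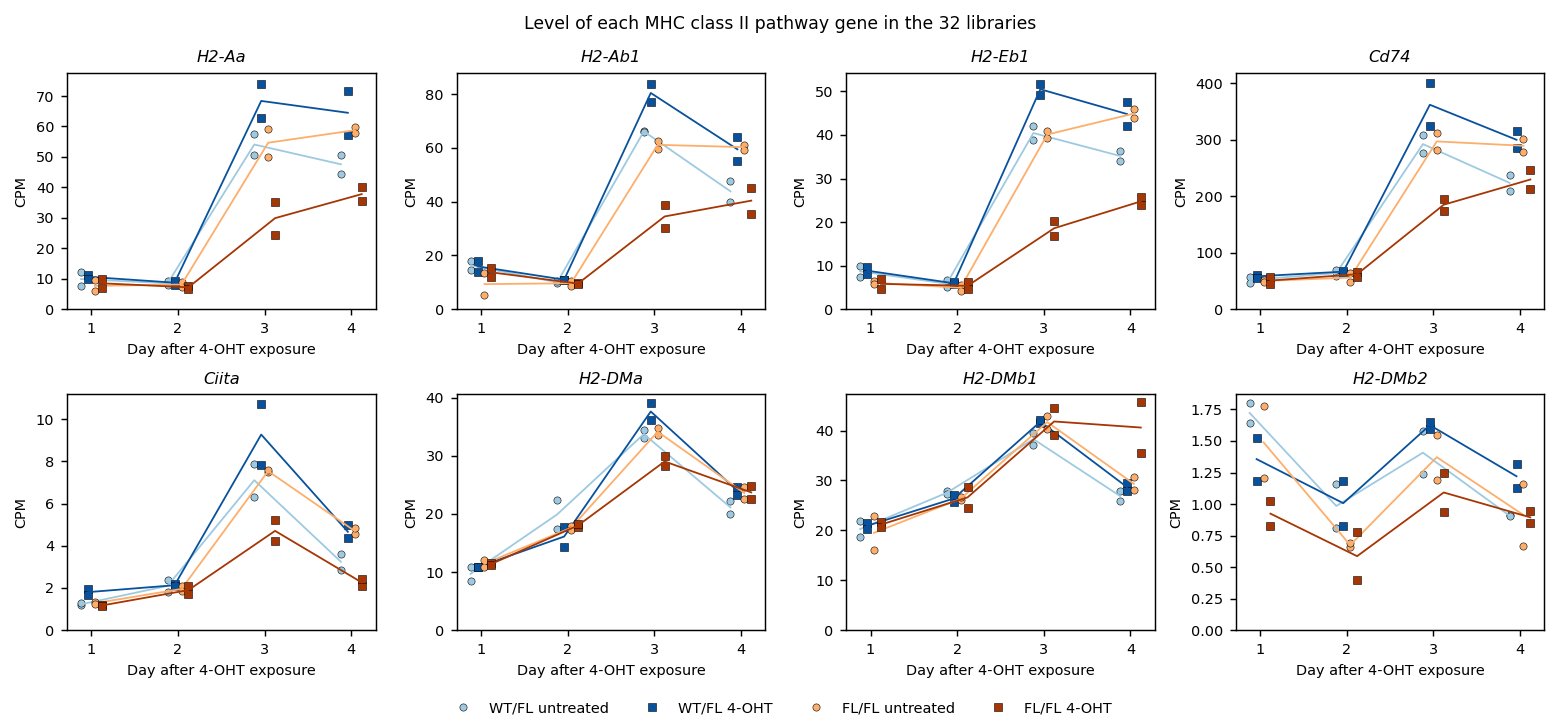
Level (CPM, linear axes from 0) of each of the 8 genes against the day after 4-OHT exposure. Points are the 32 single libraries and lines join the means of the 2 libraries of a group. On day 3 the 4-OHT-treated FL/FL libraries of H2-Aa (35.3 and 24.5 CPM), H2-Ab1, H2-Eb1, Cd74, Ciita and H2-DMa lie below all other libraries of that day.

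In all 4 combinations of genotype and treatment, the class II genes rose between day 2 and day 3. H2-Aa in untreated WT/FL cells was at 12.0 and 7.66 CPM on day 1, at 7.87 and 9.08 on day 2, at 50.7 and 57.4 on day 3 and at 44.5 and 50.6 on day 4. H2-Eb1 in the same cells was at 9.85 and 7.47 CPM, then at 5.00 and 6.67, then at 38.8 and 42.1, and then at 34.1 and 36.3. Both chains were low for 2 days and high on the next 2, with no overlap between the early and late libraries. The invariant chain gene Cd74 went from 58.6 and 68.9 CPM on day 2 to 276 and 309 on day 3, and Ciita from 2.38 and 1.82 to 6.32 and 7.89. From day 2 to day 3, 7 of the 8 genes, all except H2-DMb2, were called higher in each of the 4 combinations (a call is an adjusted p below 0.01, from the quasi-likelihood test of edgeR, adjusted by Benjamini-Hochberg over every tested gene). Of all tested genes, 17.1% were called higher in untreated WT/FL cells, 17.7% in 4-OHT-treated WT/FL cells, 18.7% in untreated FL/FL cells and 15.1% in 4-OHT-treated FL/FL cells. The fold change was 6.97 for H2-Eb1 and 6.39 for H2-Aa in untreated WT/FL cells, 8.51 and 7.88 in 4-OHT-treated WT/FL cells, and 8.20 and 6.80 in untreated FL/FL cells. In 4-OHT-treated FL/FL cells it was 3.46 for H2-Eb1 and 4.15 for H2-Aa. With 1 library left out at a time, 27 of these 28 calls held in every fit, and that of H2-DMb1 in untreated WT/FL cells held only without replicate 1 of day 3 (adjusted p of 0.0175 to 0.0296 in the others).

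Some markers of macrophages and of other cell types, named here after their values were seen, rose in the same step. The macrophage markers Adgre1, Csf1r, Cd14, Mertk and Lyz2 were called higher in all 4 combinations, Csf1r by 0.94 to 1.27 on the log2 scale. Cd68, Fcgr1 and Itgam were called higher in some of them. These calls stand beside 15.1% to 18.7% of all tested genes called higher. Clec10a, a lectin gene of dendritic cells and macrophages, was called higher in all 4 combinations, by 3.17 and 2.37 on the log2 scale in untreated and 4-OHT-treated WT/FL cells and by 3.26 and 1.18 in untreated and 4-OHT-treated FL/FL cells. Cd22, a B cell lectin gene, was called higher by 2.88, 2.22, 2.40 and 2.28 in the same order. No other tested marker of the dendritic cell and B cell lists was called higher, except Batf3 in untreated FL/FL cells. Among them, Cd79b changed by 0.06 to 0.45 and Clec9a by -3.10 to -1.48. The summed level of 10 dendritic cell markers was 18.0 to 31.4 CPM in the libraries of day 2 and 34.4 to 262 in those of day 3, and that of the B cell markers was 4.80 to 6.28 and 8.05 to 13.1 CPM. No dendritic cell marker other than Clec10a exceeded 8.80 CPM in any library, so the sum of that list mainly followed Clec10a. Itgax, the CD11c gene, was called lower in 4-OHT-treated FL/FL cells (-1.80 ± 0.25 SE, adjusted p = 1.17e-06) and not in the other combinations (-0.29 to 0.23). Whether dendritic or B cells had a part in the rise of the class II genes was not tested.

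The H2-DM genes and Ciita followed other courses than the chains. H2-DMa, the DM alpha chain gene, already rose from day 1 to day 2 in all 4 combinations, by 1.04 and 0.57 on the log2 scale in untreated and 4-OHT-treated WT/FL cells and by 0.62 and 0.66 in untreated and 4-OHT-treated FL/FL cells, a step in which 20.2%, 20.2%, 20.3% and 21.7% of the tested genes were called higher in the same order. Ciita was called higher in this step in untreated WT/FL (0.78, adjusted p = 0.00331) and 4-OHT-treated FL/FL cells (0.70, adjusted p = 0.00801), and H2-DMb1 in untreated WT/FL (0.44, adjusted p = 0.00453) and untreated FL/FL cells (0.43, adjusted p = 0.00512). Each of these 4 calls held in only 1 of 4 fits with 1 library left out. DESeq2 did not call Ciita in 4-OHT-treated FL/FL cells. The further rise of H2-DMa to day 3 was 0.76 and 1.22 in WT/FL and 0.96 and 0.69 in FL/FL cells on the same scale. H2-DMb1 rose least of the 7 genes between days 2 and 3, by 0.48, 0.66, 0.66 and 0.65. H2-DMb2, its low copy, changed by 0.52, 0.69, 1.02 and 0.91 without passing the threshold (adjusted p = 0.227, 0.101, 0.0185 and 0.0435). Between days 1 and 2, H2-Eb1 fell in 4-OHT-treated WT/FL cells (log2 fold change -0.57 ± 0.18 SE, adjusted p = 0.00967) and H2-DMb2 fell in untreated FL/FL cells (-1.14 ± 0.35 SE, adjusted p = 0.00771), each in a step that 18.4% and 18.3% of the tested genes followed downwards. The call of H2-Eb1 held only without day 1 replicate 2 (adjusted p of 0.0308 to 0.124 in the other 3 fits), and that of H2-DMb2 likewise (0.043 to 0.113).

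After day 3, Ciita fell while the chain genes and Cd74 did not pass the test. Whether Ciita differed from them in this step was not tested. Its log2 change from day 3 to day 4 was -1.14 in untreated WT/FL, -0.99 in 4-OHT-treated WT/FL, -0.68 in untreated FL/FL and -1.05 in 4-OHT-treated FL/FL cells, and it was called in each, beside 6.39%, 5.93%, 7.18% and 5.7% of all tested genes. The call in untreated WT/FL cells held with any 1 library left out. That in untreated FL/FL cells was lost without any 1 of its 4 libraries (adjusted p of 0.0432 to 0.0811), that in 4-OHT-treated WT/FL cells without replicate 2 of day 3 (0.0241) or day 4 (0.0103), and that in 4-OHT-treated FL/FL cells without replicate 1 of day 3 (0.0122) or day 4 (0.0169). H2-Aa, H2-Ab1, H2-Eb1 and Cd74 gave 0 calls in these 4 steps by edgeR or DESeq2, and their log2 changes lay between -0.60 and 0.42. Of all 8 genes, 5, 3, 3 and 3 had an unadjusted p below 0.05 by edgeR in the same order of combinations. H2-DMa fell by 0.68, 0.65 and 0.53 and H2-DMb1 fell by 0.51, 0.54 and 0.51 in untreated WT/FL, 4-OHT-treated WT/FL and untreated FL/FL cells. The H2-DMb1 calls were lost without any 1 library (adjusted p of 0.0115 to 0.0654), and that of H2-DMa in untreated FL/FL cells without day 3 replicate 1 (0.0126) or day 4 replicate 2 (0.0214). In 4-OHT-treated FL/FL cells H2-DMa changed by -0.29 (adjusted p = 0.0782) and H2-DMb1 by -0.04 (adjusted p = 0.888). For neither gene was this step called different from that in 4-OHT-treated WT/FL cells. Over all 96 tests between consecutive days, 48 were called, 36 higher and 12 lower.

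**Figure D2:**
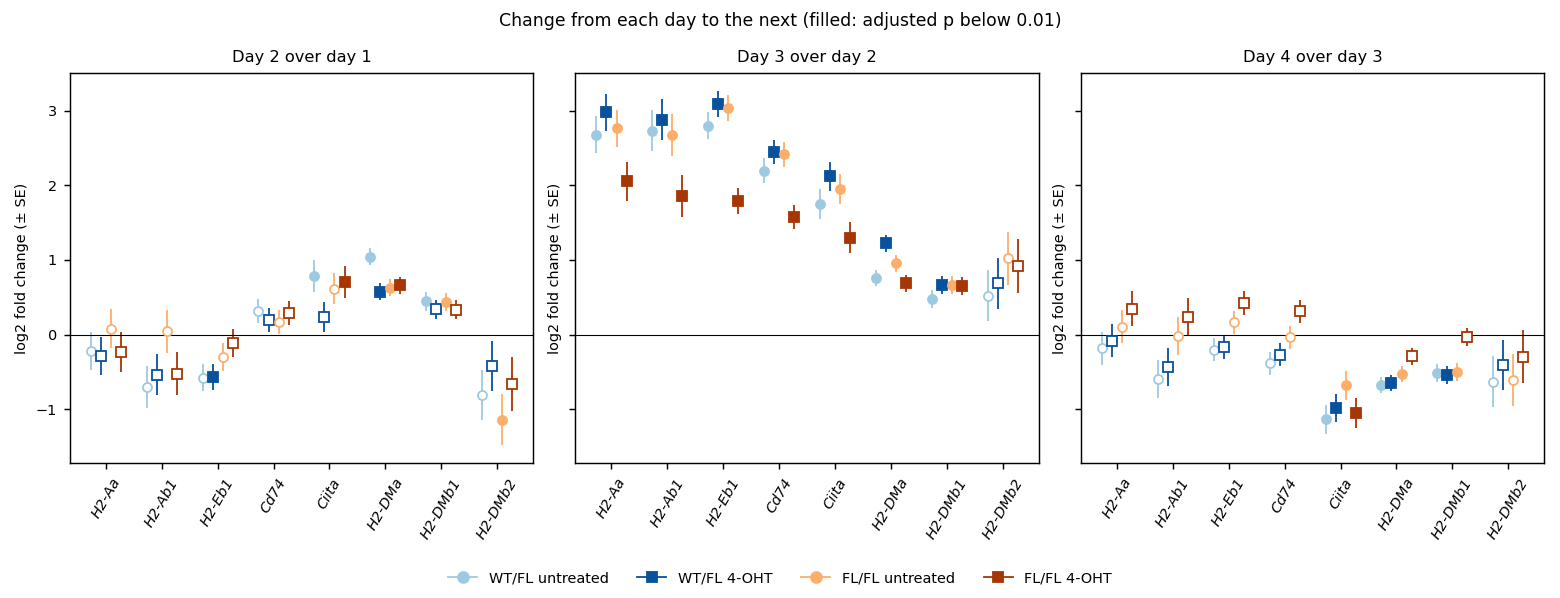
Log2 fold change (± SE) of each gene from one day to the next in the 4 combinations of genotype and treatment. Filled symbols have an adjusted p below 0.01. The step from day 2 to day 3 holds the large rises of H2-Aa, H2-Ab1, H2-Eb1 and Cd74, which are smaller in 4-OHT-treated FL/FL cells (2.05, 1.86, 1.79 and 1.58), and Ciita falls from day 3 to day 4 in all 4 combinations.

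Cells that had lost the Trex1 transcript were compared with 4-OHT-treated WT/FL cells on each day. In the study's Western blots the protein was nearly absent by day 3, and much of it remained on day 2. On days 1 and 2, 0 of the 8 genes were called in either direction, while 0.0197% and 8.17% of all tested genes were. At an unadjusted p below 0.05 there were 2 genes on day 1 (Ciita and H2-Eb1, at log2 fold changes of -0.62 and -0.61) and 1 on day 2 (H2-DMb2, at -0.79). DESeq2 also called 0 on both days.

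On day 3, the transcripts of the chain genes H2-Eb1, H2-Aa and H2-Ab1, of the invariant chain gene and of Ciita were all lower in 4-OHT-treated FL/FL cells. H2-Ea, the alpha partner gene of H2-Eb1, was listed at 0 in all 32 libraries. The values of H2-Eb1 are thus of a transcript and say nothing of an I-E pair. H2-Eb1, the beta chain gene of I-E, was at 20.3 and 16.9 CPM in 4-OHT-treated FL/FL and at 49.2 and 51.8 in 4-OHT-treated WT/FL libraries, with 38.8 to 42.1 in the 4 untreated libraries of that day. H2-Aa, the I-A alpha chain gene, was at 35.3 and 24.5 against 62.7 and 74.1 CPM, and H2-Ab1, the I-A beta chain gene, at 38.8 and 30.1 against 77.1 and 83.9. For H2-Eb1, H2-Aa and H2-Ab1 the 4-OHT-treated FL/FL libraries lay below all 6 other libraries of day 3. Cd74 was at 196 and 174 CPM against 324 and 400, and untreated libraries held 276 to 312. Ciita was at 5.20 and 4.21 CPM against 7.84 and 10.7, and untreated libraries held 6.32 to 7.89. In both genes the groups did not overlap either. H2-DMa, at 29.9 and 28.2 CPM in 4-OHT-treated FL/FL cells, also lay below the 6 other libraries of day 3 (at least 33.0 CPM). The share of all tested genes whose libraries separate in this way was not counted, here or below, so such separation is description only.

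Of the 8 genes, 5 were called lower on day 3, beside 5.42% of all tested genes, and 0 were called higher (6.69% of all). The level in 4-OHT-treated FL/FL cells was 0.366 times that in 4-OHT-treated WT/FL cells for H2-Eb1 (log2 fold change -1.45 ± 0.16 SE, adjusted p = 9.28e-07) and 0.511 times for Cd74 (-0.97 ± 0.16, adjusted p = 0.000201). It was 0.506 times for Ciita (-0.98 ± 0.19, adjusted p = 0.000346), 0.434 times for H2-Aa (-1.20 ± 0.23, adjusted p = 0.000951) and 0.427 times for H2-Ab1 (-1.23 ± 0.26, adjusted p = 0.00222). None of the 8 passed an absolute log2 fold change of 1.5, which 0.387% of all tested genes passed in the lower direction. H2-DMa was at 29.9 and 28.2 against 36.2 and 39.0 CPM (-0.37 ± 0.11, adjusted p = 0.0147), and H2-DMb1 at 44.5 and 39.2 against 41.5 and 42.1 (-0.00 ± 0.12). The median log2 fold change of the 8 genes was -0.98, beside -0.00728 for all tested genes. H2-Eb1 and Cd74 kept their call with any 1 library of the comparison left out. The call of H2-Aa was lost without 4-OHT-treated WT/FL replicate 2 (adjusted p = 0.0127) or FL/FL replicate 2 (0.0275), that of Ciita without the same libraries (0.0213 and 0.0181), and that of H2-Ab1 also without WT/FL replicate 1 (0.0132, 0.0184 and 0.0451). In bulk RNA, fewer cells that express these genes and less RNA per cell cannot be told apart.

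On day 4, Ciita and H2-Eb1 remained lower and H2-DMb1 was higher. Ciita was at 2.10 and 2.42 CPM in 4-OHT-treated FL/FL and at 4.98 and 4.34 in 4-OHT-treated WT/FL libraries, and untreated libraries held 2.87 to 4.85. H2-Eb1 was at 25.6 and 23.9 against 42.1 and 47.5 CPM, and untreated libraries held 34.1 to 45.9. In both genes, both 4-OHT-treated FL/FL libraries were below the other 6 of that day. The same was true of H2-Aa, where the lowest of the other 6 was at 44.5 CPM. The ratio was 0.485 for Ciita (log2 fold change -1.04 ± 0.20 SE, adjusted p = 0.000168) and 0.552 for H2-Eb1 (-0.86 ± 0.16, adjusted p = 0.000221), and both calls held with any 1 library left out. These 2 of 8 genes called lower stand beside 11.7% of all tested genes, so the count by itself says little about the pathway on this day. H2-Aa, at 40.1 and 35.4 against 57.2 and 71.8 CPM, did not pass the threshold (-0.77 ± 0.23, adjusted p = 0.0147), nor did H2-Ab1 (-0.56 ± 0.26, adjusted p = 0.117) or Cd74 (-0.39 ± 0.16, adjusted p = 0.0717). DESeq2 also called H2-Aa on this day, which made 4 genes. The median of the 8 genes was -0.50, beside -0.0366 for all tested genes.

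The DM beta chain gene H2-DMb1 went the other way on day 4. It was at 45.8 and 35.4 CPM in 4-OHT-treated FL/FL libraries, above the 25.9 to 30.6 CPM of the 6 others, and the fold over 4-OHT-treated WT/FL cells was 1.42 (log2 fold change 0.50 ± 0.12 SE, adjusted p = 0.00232). It was 1 of 8 genes called higher, beside 9.84% of all tested genes, so the count by itself says little. The response of H2-DMb1 to 4-OHT was not called different between the genotypes on this day (interaction term below). Without 4-OHT-treated FL/FL replicate 1 the difference was 0.30 (adjusted p = 0.128), and the call was also lost without WT/FL replicate 1 (adjusted p = 0.0365) or replicate 2 (0.0123). H2-DMa, whose product pairs with that of H2-DMb1, was at 24.7 and 22.6 against 23.3 and 24.7 CPM in these groups. Per kilobase, H2-DMb1 stood at 1.52 and 1.28 times the level of H2-DMa in the 4-OHT-treated FL/FL libraries of day 4 and at 0.979 to 1.06 times in the 6 other libraries. Against H2-Ab1 it stood at 0.989 and 1.12 times on day 3 and 0.874 and 0.861 times on day 4 in these cells, and at 0.433 to 0.592 and 0.399 to 0.559 times in the other libraries of those days. On day 3 the order of the 8 genes in 4-OHT-treated FL/FL cells was accordingly Cd74 (129 CPM per kb), H2-DMb1 (29.8), H2-Ab1 (28.4), H2-Aa (26.5) and H2-DMa (25.2), where each neighbour after Cd74 overlapped with the next, followed by H2-Eb1 (10.9), H2-DMb2 and Ciita. H2-DMb2 was called in no comparison of genotype or treatment, at log2 fold changes of -0.56 and -0.45 between genotypes on days 3 and 4.

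Within FL/FL cells, 4-OHT-treated were compared with untreated cultures. This comparison shares the 4-OHT-treated FL/FL libraries with the one above and is not independent of it. On days 1 and 2, 0 of the 8 genes were called by edgeR or DESeq2 and 0 had an unadjusted p below 0.05, while 0.0131% and 11.1% of all tested genes were called in either direction. On day 3, 4 were called lower, beside 7.57% of all genes: H2-Eb1 (log2 fold change -1.12 ± 0.16 SE, adjusted p = 1.74e-05), Cd74 (-0.69 ± 0.16, adjusted p = 0.00318), Ciita (-0.69 ± 0.19, adjusted p = 0.00819) and H2-Aa (-0.88 ± 0.23, adjusted p = 0.00861). H2-Ab1 stood at -0.83 ± 0.26 (adjusted p = 0.0254). The H2-Eb1 call held with any 1 library left out, whereas those of H2-Aa, Cd74 and Ciita were each lost without untreated replicate 1 (adjusted p = 0.0805, 0.0367 and 0.0413), untreated replicate 2 (0.0205, 0.0111 and 0.0499) or 4-OHT-treated replicate 2 (0.139, 0.0491 and 0.138), and those of Cd74 and Ciita also without 4-OHT-treated replicate 1 (0.0133 and 0.0143). On day 4, Ciita (-1.05 ± 0.20, adjusted p = 0.000156) and H2-Eb1 (-0.86 ± 0.16, adjusted p = 0.000206) were called lower, beside 11.2% of all genes. H2-DMb1 was called higher (0.47 ± 0.12, adjusted p = 0.00435), beside 10.2%, but not without 4-OHT-treated replicate 1 (0.27, adjusted p = 0.18), untreated replicate 1 (adjusted p = 0.0151) or untreated replicate 2 (0.0608).

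In WT/FL cells, the same exposure left no called change. Of the 32 tests over 4 days, 0 were called by edgeR and 0 by DESeq2, and 6 had an unadjusted p below 0.05. Of all tested genes, 0.00655%, 0.0918%, 0.341% and 0.216% were called on days 1 to 4. On days 3 and 4 the fold changes of all 8 genes were above 0, from 0.13 to 0.38 and from 0.09 to 0.53 on the log2 scale. Untreated FL/FL and WT/FL cells also gave 0 called tests of 32 by either tool, with 5 at an unadjusted p below 0.05, beside 0%, 0%, 0% and 0.0655% of all tested genes.

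**Figure D3:**
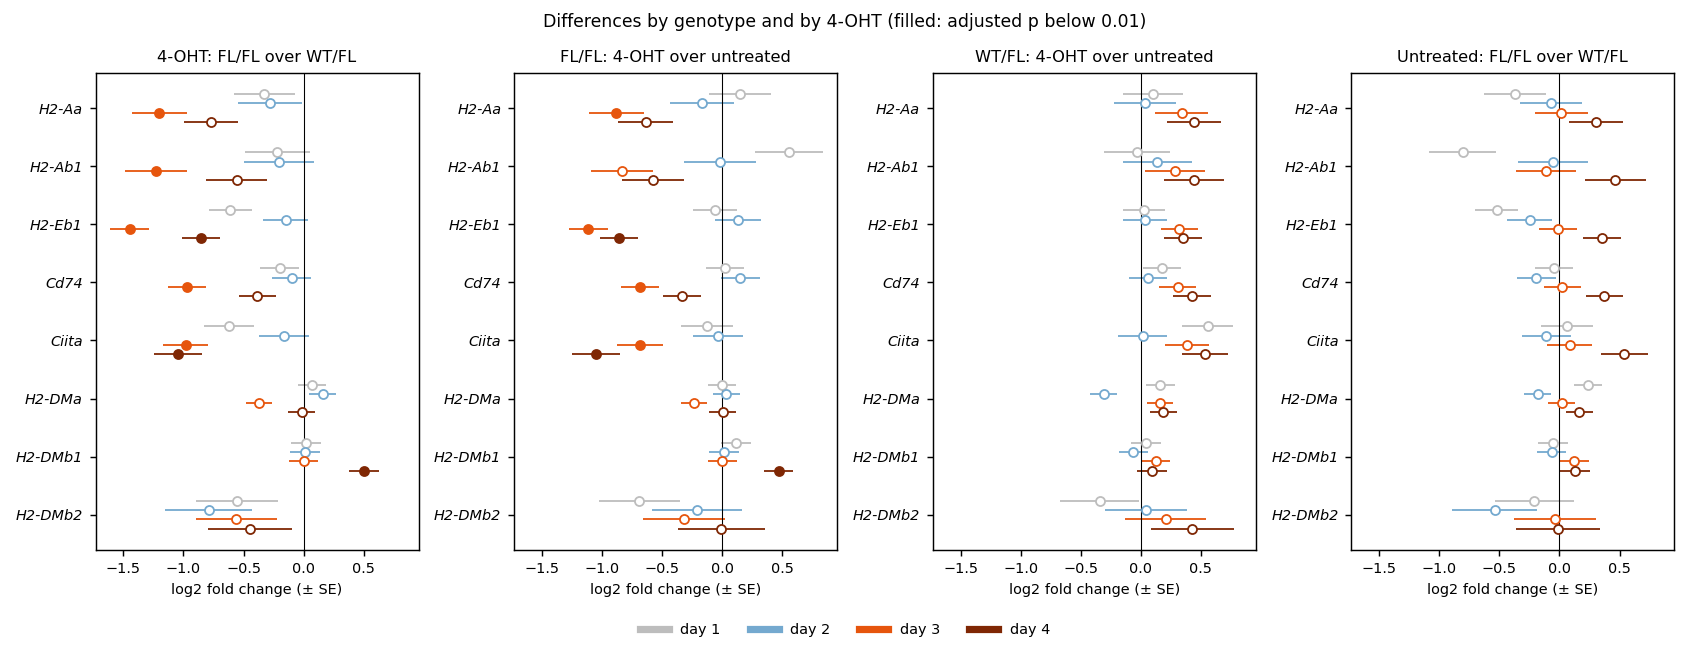
Log2 fold change (± SE) of each gene by day in 4 comparisons, namely FL/FL over WT/FL after 4-OHT, 4-OHT over untreated in FL/FL and in WT/FL cells, and FL/FL over WT/FL without treatment. Filled symbols have an adjusted p below 0.01. The filled symbols below 0 are those of days 3 and 4 in the first and second comparison, and H2-DMb1 on day 4 (0.50 and 0.47) is the filled symbol above 0.

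Whether the response to 4-OHT differed between the genotypes was tested by an interaction term, which uses all 8 libraries of a day. On days 1 and 2, 0 of the 8 genes were called by edgeR or DESeq2 and 1 had an unadjusted p below 0.05 on each day, beside 0.00655% and 4.04% of all tested genes called. On day 3, 3 were called, beside 2% of all genes called lower: H2-Eb1 (difference of log2 fold changes -1.44 ± 0.22 SE, adjusted p = 0.000213), Cd74 (-0.99 ± 0.22, adjusted p = 0.00757) and Ciita (-1.07 ± 0.26, adjusted p = 0.00941). H2-Aa (-1.22, adjusted p = 0.0224) and H2-Ab1 (-1.11, adjusted p = 0.065) did not pass. The H2-Eb1 term held with any 1 library left out. The terms of Cd74 and Ciita were lost in 7 of the 8 such fits, with adjusted p of 0.0176 to 0.042 and 0.0114 to 0.0824, and held only without 4-OHT-treated WT/FL replicate 1. On day 4, 2 were called, beside 5.24% of all genes called lower. Ciita had a difference of -1.59 ± 0.28 (adjusted p = 0.000126), past the fold threshold of 1.5 like 1.02% of all tested genes, and H2-Eb1 one of -1.21 ± 0.22 (adjusted p = 0.00043). Both calls held with any 1 library left out. The Ciita difference did not stay past 1.5 in every such fit. It was -1.43 without untreated WT/FL replicate 1, -1.48 without 4-OHT-treated WT/FL replicate 1 and -1.49 without 4-OHT-treated FL/FL replicate 1. Cd74 (-0.76, adjusted p = 0.0232), H2-Aa (-1.08, adjusted p = 0.0266) and H2-Ab1 (-1.02, adjusted p = 0.0669) did not pass. Nor did H2-DMb1, which was called higher between the 4-OHT-treated genotypes on this day.

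The change of the genotype difference between days was tested as well. Between days 2 and 3 it was called for H2-Eb1 alone (-1.30 ± 0.25 SE, adjusted p = 0.00546), beside 0.577% of all genes called lower. That call was lost in 6 of 8 fits with 1 library left out, at adjusted p of 0.017 to 0.0643, and held only without 4-OHT-treated FL/FL replicate 2 of day 2 or replicate 1 of day 3. Cd74 (-0.87, adjusted p = 0.0468), H2-Ab1 (-1.02, adjusted p = 0.204), H2-Aa (-0.92, adjusted p = 0.201) and Ciita (-0.82, adjusted p = 0.119) did not pass. Between days 1 and 2 and between days 3 and 4, 0 of the 8 genes were called by edgeR or DESeq2 and 0 and 4 had an unadjusted p below 0.05, beside 3.02% and 3.7% of all genes called in either direction.

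Other genes of the pathway were examined as lists. H2-Ea, whose product pairs with that of H2-Eb1, was listed at 0 in all 32 libraries, and H2-Eb2 reached at most 0.278 CPM. H2-Oa and H2-Ob, the chains of the DM inhibitor H2-O, were tested, and on days 2 to 4 edgeR called 0 of the 2 and 0 had an unadjusted p below 0.05. Their log2 fold changes between the 4-OHT-treated genotypes were -0.69 ± 0.73 and -0.70 ± 0.39 SE on day 3. Of the 7 genes of factors that bind class II promoters (Rfx5, Rfxap, Rfxank, Nfya, Nfyb, Nfyc and Creb1), 0 were called by edgeR on days 2 and 3 (1 and 4 at an unadjusted p below 0.05), and Creb1 was called lower on day 4 (-0.38 ± 0.09, adjusted p = 0.00112). Among all tested genes, 5.69%, 6.69% and 9.84% were called higher and 2.48%, 5.42% and 11.7% lower on days 2, 3 and 4. The call of Creb1 alone therefore says little about the promoter factors as a list. Rfx5, the DNA-binding subunit of the RFX complex and singled out here after its values were seen, differed by -0.06 ± 0.10 on day 3 and 0.02 ± 0.10 on day 4.

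Genes upstream of Ciita were called in both directions. Ifng was listed at 0 in all 32 libraries. Of the other 12 genes of Ciita regulation and IFN-gamma receptor signalling, day 2 gave 6 calls upwards and 1 downwards, day 3 gave 3 upwards and 4 downwards, and day 4 gave 6 upwards and 2 downwards. Of all tested genes, 5.69%, 6.69% and 9.84% were called higher and 2.48%, 5.42% and 11.7% lower on these days. Irf1, a direct activator of Ciita, was at 184 and 184 against 133 and 145 CPM on day 3 and at 151 and 156 against 77.8 and 78.7 on day 4 (log2 fold change 0.97 ± 0.06 SE, adjusted p = 6.07e-13). Irf1 was higher in the cells with less Ciita transcript, and its libraries did not overlap on either day. The kinase gene Jak2 was also higher on day 4 (0.62 ± 0.08, adjusted p = 2.27e-07), and Jak1 (-0.20 ± 0.05, adjusted p = 0.005) and the receptor gene Ifngr1 (-0.23 ± 0.06, adjusted p = 0.00551) were lower. The 4 genes called lower on day 3, named after their values were seen, were Ifngr1 (-0.40 ± 0.06), Irf4 (-0.88 ± 0.22), Irf8 (-0.24 ± 0.06) and Prdm1 (-0.51 ± 0.09), whose product represses Ciita. Irf4, a transcription factor of B and dendritic cells, was at 3.54 and 2.79 CPM in 4-OHT-treated FL/FL libraries of day 3, below the 5.61 to 6.85 CPM of the 6 others.

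Genes that prepare class II cargo were called higher or not at all. Of 11 genes of antigen processing in endosomes and lysosomes, 2, 6 and 8 were called higher on days 2, 3 and 4, and 0 lower, beside 5.69%, 6.69% and 9.84% of all tested genes called higher. Ctss, the cathepsin that trims the invariant chain, was at 5447 and 5274 CPM in 4-OHT-treated FL/FL and at 3475 and 3518 in 4-OHT-treated WT/FL libraries on day 3. By day 4 the difference reached 0.95 ± 0.06 SE on the log2 scale (adjusted p = 1.63e-12). Sppl2a, a protease of the invariant chain remnant (0.51 ± 0.06, adjusted p = 3.03e-08), and the cathepsin gene Ctsh (0.40 ± 0.06, adjusted p = 6.95e-06) were higher as well. Of 6 genes of surface turnover and co-stimulation, day 2 gave 2 calls upwards and 1 downwards, day 3 gave 0 (1 at an unadjusted p below 0.05) and day 4 gave 3 upwards, namely the co-stimulatory genes Cd40 (1.62 ± 0.22, adjusted p = 5.91e-06) and Cd86 (0.61 ± 0.10, adjusted p = 5.8e-05), and Cd83 (0.76 ± 0.15, adjusted p = 0.000528), whose product stabilizes surface class II.

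Class I presentation, a list added after the data had been seen, was called in the other direction than the class II chains. Of its 10 genes, 8, 9 and 10 were called higher on days 2, 3 and 4 and 0 lower, beside 5.69%, 6.69% and 9.84% of all tested genes called higher. The peptide transporter gene Tap1 (log2 fold change 1.48 ± 0.08 SE, adjusted p = 4.64e-14), and the immunoproteasome genes Psmb8 (1.08 ± 0.07, adjusted p = 1.12e-12) and Psmb9 (1.42 ± 0.09, adjusted p = 6.04e-12) were the 3 with the smallest p on day 4. In 4-OHT-treated against untreated WT/FL cells, edgeR called 0 of 192 tests of the genes of these 6 lists over the 4 days, and 25 had an unadjusted p below 0.05.

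**Figure D4:**
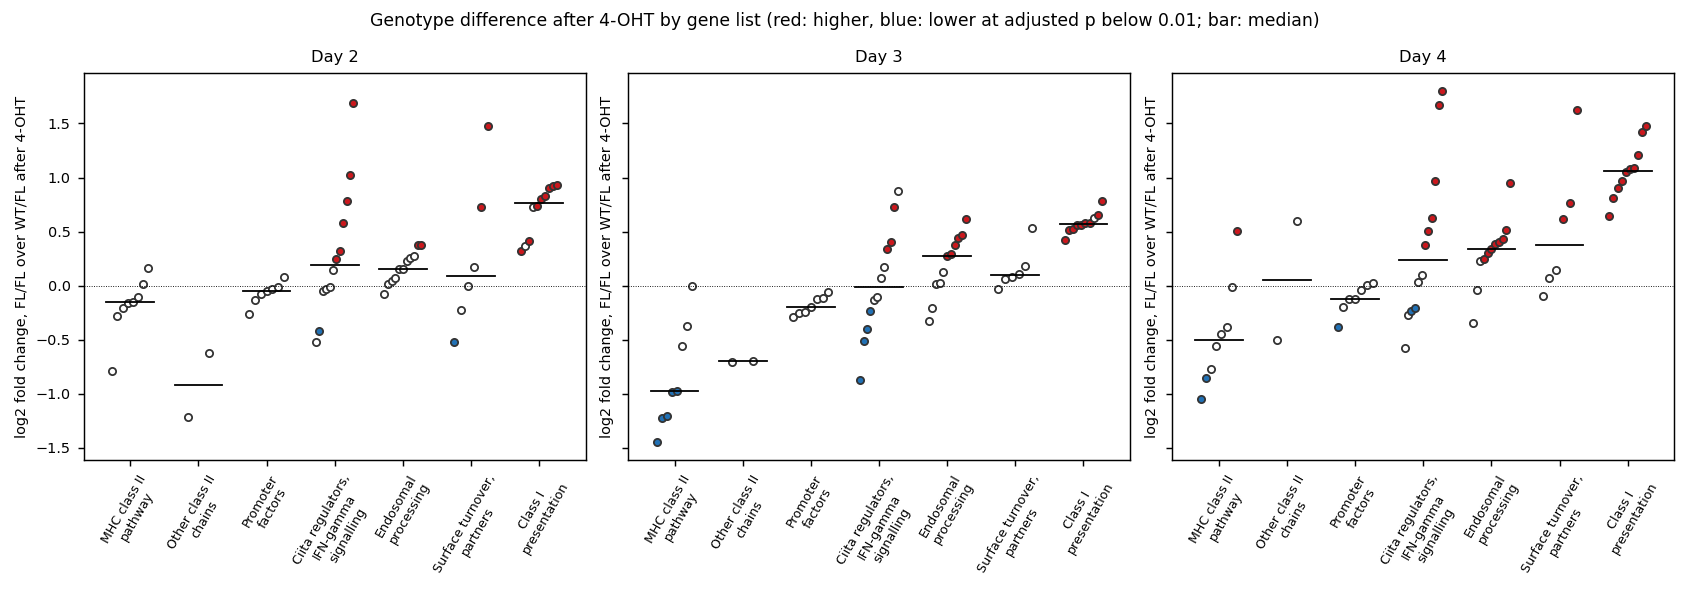
Log2 fold change of FL/FL over WT/FL cells after 4-OHT for the 8 MHC class II pathway genes and the 6 lists of related genes on days 2, 3 and 4. Each point is a gene, bars are list medians, and red or blue points were called higher or lower at an adjusted p below 0.01. On day 3 the medians of the class II genes (-0.98) and of the class I genes (0.57) lie on opposite sides of 0.

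Class II genes are also marks of dendritic and B cells, so the markers of other cell types stand beside these results. Of the 8 dendritic cell markers that passed the filter, 2 were called lower in 4-OHT-treated FL/FL against 4-OHT-treated WT/FL cells on days 3 and 4, beside 5.42% and 11.7% of all tested genes, and 0 higher. Itgax was at 0.965 and 0.958 against 2.87 and 2.77 CPM on day 3 (log2 fold change -1.55 ± 0.25 SE, adjusted p = 4.26e-05) and at 0.581 and 0.908 against 3.54 and 3.70 on day 4 (-2.29 ± 0.26, adjusted p = 1.02e-07). Clec10a was at 31.8 and 30.9 against 93.9 and 81.8 CPM on day 3 (-1.49 ± 0.09, adjusted p = 9.01e-12). Clec10a was also called lower in 4-OHT-treated against untreated WT/FL cells on day 3 (-1.41 ± 0.09, adjusted p = 4.23e-11) and day 4 (-1.26 ± 0.09, adjusted p = 9.09e-10). Itgax was not called in that comparison on these days (-0.45 and -0.38). The summed level of the list on day 3 was 34.4 to 34.7 CPM in 4-OHT-treated FL/FL, at least 87.3 in 4-OHT-treated WT/FL and 220 to 262 in untreated libraries. Clec10a made up most of this sum, which is thus no separate measure of dendritic cells. The genes Flt3, Xcr1, Clec9a, Cd209a and Siglech did not exceed 0.396 CPM in any library, and Cd209a was at 0 in 28, whereas Zbtb46 (0.192 to 2.03 CPM), Batf3 (0.188 to 1.28) and Ccr7 (0.0218 to 0.641) were detected in all 32. The part of dendritic cells in the class II difference was not tested beyond these values. Of 8 macrophage markers, Csf1r, Itgam and Lyz2 were called lower and Cd68 and Fcgr1 higher on day 3 (5.42% and 6.69% of all tested genes), Csf1r and Itgam lower and Cd14 and Fcgr1 higher on day 4 (11.7% and 9.84%), and the summed level on day 3 was 38921 to 39308 CPM in 4-OHT-treated FL/FL and 45691 to 48069 in 4-OHT-treated WT/FL libraries. The lists of B cell, granulocyte, T and NK cell, and mast cell and basophil markers held 0 genes that edgeR called on days 3 and 4, where 2, 5, 0 and 1 of their genes passed the filter, and 1 gene of the granulocyte list had an unadjusted p below 0.05 on day 3. Of the monocyte markers, 0 were called by edgeR on day 3 and 0 had an unadjusted p below 0.05, and the chemokine receptor gene Ccr2 was called higher on day 4.

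**Figure D5:**
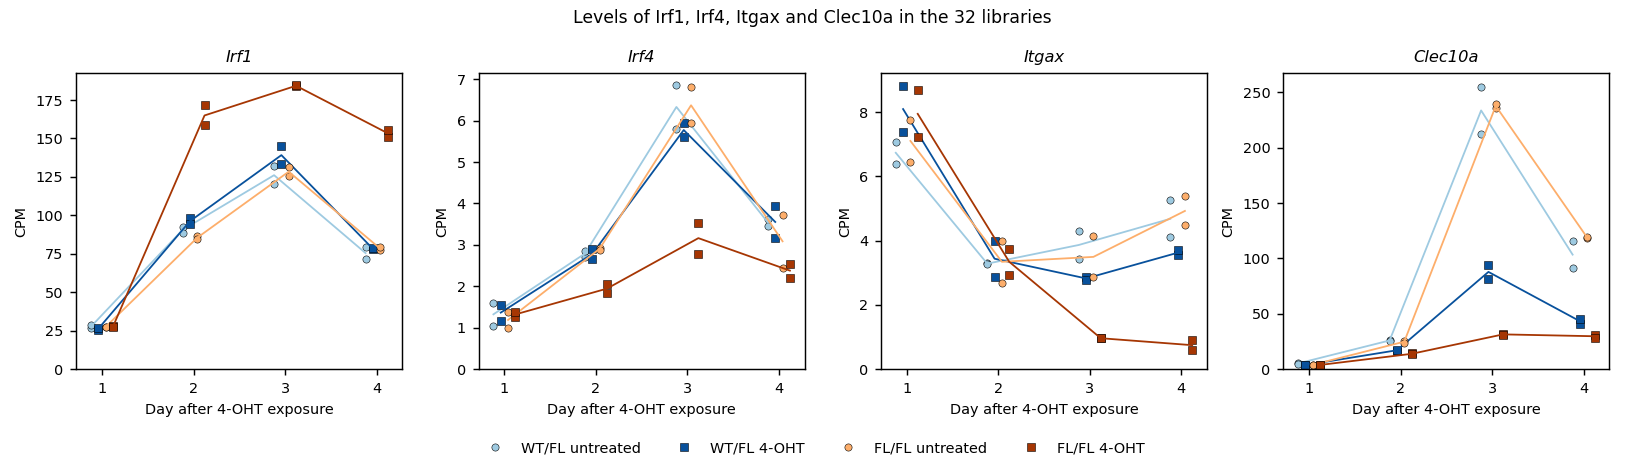
Level (CPM, linear axes from 0) of Irf1, Irf4, Itgax and Clec10a against the day after 4-OHT exposure. Points are single libraries and lines join the means of the 2 libraries of a group. In 4-OHT-treated FL/FL cells, Irf1 lies above and Irf4 (3.54 and 2.79 CPM), Itgax and Clec10a lie below all other groups on day 3, and Clec10a is also below the untreated groups in 4-OHT-treated WT/FL cells.

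Likeness of pattern was described by Pearson's r of log2 CPM over the 32 libraries, which share groups, days and depth, so no p is given. H2-Aa, H2-Ab1 and H2-Eb1 correlated with each other at 0.978 to 0.991. With their mean, Cd74 had an r of 0.979, Ciita of 0.862, H2-DMa of 0.767, H2-DMb1 of 0.706 and H2-DMb2 of 0.294. Ciita was closer to H2-DMa (0.921) than to the chains it regulates (0.851 to 0.866). Outside the 8 genes, the highest values with the chain mean were those of the Wnt receptor gene Fzd1 (0.974), Eepd1 (0.973), the cytokine receptor subunit genes Csf2rb2 (0.97) and Csf2rb (0.969), and the histone demethylase gene Kdm6b (0.966). On day 3, Fzd1 was at 4.77 and 6.70 CPM in 4-OHT-treated FL/FL and at 24.6 and 18.5 in 4-OHT-treated WT/FL libraries. With Ciita, Bmf had an r of 0.958 and Kdm5b of 0.943.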

How the data were processed

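RNA of BMDM cultures was sequenced by the study in 32 libraries of 16 groups. The authors split the reads by library with JE, inspected read quality in FastQC 11.9, ran Salmon for transcript quantification and summed transcripts to genes with tximport, and GRCm39 is the genome they name. The deposited table gives estimated counts for each gene, which are whole numbers and not normalized. The Salmon version, the annotation release and the use of strand are not given in the sources used here. The labels' processing notes also name DESeq2 1.32, whose output was not used.

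Identifiers were matched without version to GENCODE vM39 (51048 of 54281, the rest with 0.32% of the counts). The tests came from edgeR 4.0.16 under R 4.3.3. TMM factors ranged from 0.894 to 1.12, genes passed filterByExpr with a minimum count of 10, and glmQLFit with robust estimation fitted a mean for each group over all 32 libraries, leaving 16 residual degrees of freedom and a common biological coefficient of variation of 0.0912. The quasi-likelihood test gave p-values that were adjusted by Benjamini-Hochberg over 15257 genes in each contrast. Genes with an adjusted p below 0.01 were called, and an absolute log2 fold change above 1.5 was counted apart. SE is the absolute log2 fold change divided by the square root of F. CPM was computed on TMM-scaled totals, and likeness used log2 CPM with a prior count of 2. Levels per kilobase used the canonical transcript, since the union of exons mixes isoforms of very different length. The scripts were tested on simulated counts. Depth limits precision as given beside the counts, and no interval for counting error was computed, since libraries vary by more than that.

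Alternatives were other scaling factors (RLE, upper quartile), DESeq2 1.42.0, no filter or a minimum count of 30, an adjusted p below 0.05, fits of the contrast's libraries only, summed counts of H2-DMb1 and H2-DMb2, CPM on raw totals, and leaving out each library. The series of sample titles as a block was added after the data had been seen. The genes named were the 8 pathway genes, Trex1, up to 3 genes of each list in each direction with the smallest p on day 4 between the 4-OHT-treated genotypes, all genes of a list of 4 or fewer, the marker genes that define a cell type, and the genes most alike in pattern. Some genes that this rule gave are not reported here. The genes and lists were chosen with earlier results of these data known. The class I list, the promoter stretch AACNGATG and its pairing with ATTGG were added after the data had been seen. Libraries are numbered in accession order, which within each genotype coincides with the series of sample titles. Between the genotypes the numbers pair nothing.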

Additional observations from a re-analysis of the deposited data

Results flagged for a closer look

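The response to 4-OHT differed between FL/FL and WT/FL cells by the interaction term for 3 genes on day 3 and for 2 on day 4. On day 3 the difference of log2 fold changes was -1.4365 for H2-Eb1, -0.99328 for Cd74 and -1.0683 for Ciita. On day 4 it was -1.5851 for Ciita and -1.21 for H2-Eb1. The difference between 4-OHT-treated FL/FL and 4-OHT-treated WT/FL cells changed between days 2 and 3 for H2-Eb1, by -1.3006 on the log2 scale. The causes were not tested.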

How the results depend on the processing

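The labels name no replicate, animal or culture, but the sample titles run in 2 series within each genotype. A fit with these series as a replicate block, chosen after the data were seen, could be made for comparisons within a genotype. It gave 9 calls in FL/FL cells, 0 in WT/FL cells, 8 for the interaction, 51 between consecutive days and 3 for the change of the genotype difference, and kept every call made without the block (7, 0, 5, 48 and 1). The added calls were H2-Ab1 on day 3 and H2-Aa on day 4 in FL/FL cells, H2-Aa on days 3 and 4 and Cd74 on day 4 in the interaction, H2-Eb1 and H2-DMb1 between days 1 and 2, and Cd74 and H2-DMb1 in the change of the genotype difference. Deviations of libraries of 1 series from their group means correlated weakly between groups (r of -0.00775 to 0.144, above 0.1 in 5 of 28 pairs of groups in each genotype). In all 8 groups of each genotype, the deviation correlated above 0 with the mean deviation of the other groups. This is a weak hint from the data and not from the design. Between the genotypes no paired fit could be made, since the titles tie no FL/FL series to a WT/FL series.

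With no filter on low counts, the called tests of the 8 genes rose from 8 to 13 between the 4-OHT-treated genotypes, from 7 to 11 between 4-OHT-treated and untreated FL/FL cells, from 0 to 4 in WT/FL cells, from 0 to 4 between untreated genotypes, from 5 to 10 for the interaction and from 1 to 8 for the change of the genotype difference. In that fit edgeR gave every pathway gene the spread of the trend over all 26767 genes in place of its own (an infinite prior degree of freedom). The day 3 SE of H2-Aa thereby went from 0.228 to 0.0939 and that of H2-Ab1 from 0.257 to 0.0906 on the log2 scale, so the added calls do not reflect the spread of these genes between their own libraries. With the fold threshold of 1.5 added, these counts were 0 between the 4-OHT-treated genotypes, 0 in FL/FL cells, 1 for the interaction, 19 of 48 between consecutive days and 0 for the change of the genotype difference. At an adjusted p below 0.05 the interaction gave 8 and the change of the genotype difference 2 calls. The latter gave 2 with DESeq2 and 3 with only the libraries of the contrast, and the cause was not tested.

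With 1 library left out, calls ranged from 5 to 8 between the 4-OHT-treated genotypes, from 4 to 8 in FL/FL cells, from 0 to 1 between untreated genotypes, from 3 to 6 for the interaction, from 45 to 48 between consecutive days and from 0 to 1 for the change of the genotype difference, and stayed at 0 in WT/FL cells. The count of 5 arose without day 3 4-OHT-treated WT/FL or FL/FL replicate 2, that of 4 without day 3 untreated FL/FL replicate 1 or 2 or 4-OHT-treated FL/FL replicate 2, and the 1 call between untreated genotypes without day 1 untreated FL/FL replicate 1.

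Values near 0 changed sign. The day 3 difference of H2-DMb1 between the 4-OHT-treated genotypes was 0.01516 with RLE factors, 0.003587 with upper-quartile factors, 0.001324 without the filter, 0.004411 with only the libraries of the contrast, 0.01548 with DESeq2, and -0.09198 to 0.09195 with 1 library left out. The day 4 difference of H2-DMa was 0.01623 with only the libraries of the contrast and -0.08569 to 0.04625 with 1 library left out. No called value changed sign in the 1680 values of the other alternatives or the 1344 with 1 library left out. On day 3, fits of the contrast's libraries only ended the calls of H2-Aa between the 4-OHT-treated genotypes (adjusted p = 0.0624) and in FL/FL cells (0.122), and of Cd74 (0.02) and Ciita (0.0109) in the interaction. Ciita on day 3 also lost its call in FL/FL cells with RLE factors (0.0102) or without the filter (0.0202), and in the interaction with RLE (0.0108) or upper-quartile factors (0.0108) or without the filter (0.0137). The other calls of genotype, treatment and interaction held under the alternatives that kept all libraries and the main thresholds. DESeq2 added calls for H2-Aa on day 3 and Cd74 on day 4 in the interaction, and for Cd74 in the change of the genotype difference between days 2 and 3.

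With 2 libraries a group, differences of the size of those of H2-Ab1 and Cd74 on day 4 could not be separated from the spread at the threshold used. Counting error is largest for H2-DMb2 and Ciita, and the division of reads between H2-DMb1 and H2-DMb2 is uncertain.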
